A study of Homo sapiens with 8 samples.

Results

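Neural crest and melanocyte lineage genes were examined as a set of 8 named genes: the transcription factors MITF, ETS1, TFAP2A, TFAP2B, PAX3, SNAI2 and FOXD3, and the receptor NGFR. They were listed by name as genes of the neural crest and its melanocyte branch, with no threshold on a measured value. The choice was made with earlier results of these data known. They make up 8 of 58217 annotated genes with a transcript in the files. Of these 8 genes, 6 passed the filter on low counts and were tested among 18201 genes, and PAX3 and FOXD3 did not.

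RNA-seq was run on oligodendrocyte progenitor cells (OPCs) derived from the human embryonic stem cell line H9. The cells were kept for 2 days on 1 of 3 coatings: Matrigel, a basement membrane extract that served as the control; VN, full-length vitronectin; or VNP2, a vitronectin-derived peptide with the RGD cell-binding motif, carried on an immobilised mussel adhesive protein. All groups shared the H9 background and the OPC medium, and none of the cells in these libraries carried a SOX10 transgene. The comparison asked how gene expression in OPCs differs with the coating, in 2 Matrigel, 3 VN and 3 VNP2 libraries.

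The neural crest arises at the border of the neural plate, leaves the dorsal neural tube after an epithelial-to-mesenchymal transition, and gives rise to melanocytes, Schwann cells, peripheral neurons and much of the facial mesenchyme. The AP-2 factors TFAP2A and TFAP2B, together with PAX3, act at the plate border, FOXD3, SNAI2 and ETS1 act in the premigratory and delaminating crest, NGFR marks migrating crest cells, and MITF directs the melanocyte fate. Oligodendrocytes of the spinal cord come from the neural tube itself and not from the crest, and NGFR, ETS1 and the ubiquitous forms of MITF are also used outside the crest.

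Each library held between 37997896 and 39429453 estimated counts. The cells carried the progenitor factor OLIG2 at a mean of 41.3 to 54.0 TPM per substrate (TPM is a transcript level scaled for length and depth), but SOX10, which marks both oligodendroglia and crest, had 20 counts over all 8 libraries and was listed at 0 in both Matrigel libraries. Summed marker levels differed with the coating: the 8 progenitor markers reached 223 to 226 TPM on Matrigel, 290 to 304 on VN and 318 to 341 on VNP2, while the 14 mesenchymal markers reached 1025 to 1060, 717 to 755 and 627 to 655. Without PTPRZ1, the progenitor sums were 116 to 117 TPM on Matrigel, 145 to 149 on VN and 146 to 152 on VNP2. VN and VNP2 then overlapped. The order of the mesenchymal sums rested on the contractile gene TAGLN, without which they were 540 to 549 TPM on Matrigel, 594 to 630 on VN and 517 to 551 on VNP2. Summed TPM of the 10 surface ectoderm and epithelium markers was 161 to 171 on Matrigel, 93.8 to 95.6 on VN and 104 to 108 on VNP2, with KRT5 and KRT14 below 3 counts a library throughout. Most of that sum came from KRT8, at a mean of 103, 60.9 and 67.9 TPM on the 3 coatings, and KRT18, at 56.5, 27.1 and 31.7 TPM. Of the progenitor markers tested, 3 of 7 were higher on VN and 6 of 7 on VNP2 than on Matrigel, with 0 lower. Against Matrigel, 3 of the 14 mesenchymal markers were higher and 4 were lower on VN, and for VNP2 these numbers were 5 and 4. Of 6 ectoderm and epithelium markers tested, 0 were higher, and 2 were lower on VN and 4 on VNP2. Of the 7 pluripotency markers, 0 were higher and 1 lower on VN than on Matrigel, 1 higher and 3 lower on VNP2 than on Matrigel, and 0 higher and 2 lower on VNP2 than on VN. Of 6 neural progenitor markers tested, these numbers were 2 and 2, 1 and 2, and 2 and 1. Beside these counts, 15.2%, 16.6% and 5.18% of all genes tested were higher or lower in the same 3 comparisons. The part of these marker shifts in the results below was not tested. In bulk RNA, fewer cells of a type and less RNA per cell cannot be told apart. VN replicate 1 stood apart from the other VN libraries, with a median chi-square per gene of 2.35 and 2.75 against them where VN replicates 2 and 3 differed by 0.784 and sampling alone gives 0.455. Without it, 2, 4 and 3 of the 8 genes passed the test for VN against Matrigel, VNP2 against Matrigel and VNP2 against VN, in place of 1, 4 and 3. Over all genes tested, 3911, 3653 and 1979 passed without it, in place of 2770, 3017 and 942.

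The level of the 8 genes spanned 3 bands. NGFR, with a mean of 25.4 TPM over the 8 libraries, and ETS1, with 17.7, were the most abundant. MITF (2.57 TPM), SNAI2 (2.33 TPM) and TFAP2A (2.05 TPM) formed a middle band. TFAP2B (0.168 TPM), FOXD3 (0.109 TPM) and PAX3 (0.0193 TPM) lay close to the detection limit. The order within the bands changed with the coating. On Matrigel, ETS1 (28.6 and 30.1 TPM) lay above NGFR (22.3 and 23.3 TPM), whereas every VN and VNP2 library had more NGFR than ETS1 TPM. On VN, MITF led the middle band at 3.17 to 3.75 TPM, above all VN values of TFAP2A (1.79 to 2.48 TPM) and SNAI2 (1.93 to 2.45 TPM). On VNP2 it was the lowest of these at 1.63 to 2.06 TPM, below TFAP2A (2.15 to 3.01 TPM) and SNAI2 (2.53 to 2.80 TPM). SNAI2 and TFAP2A overlapped on VN and on VNP2, and MITF and SNAI2 overlapped on Matrigel, so these neighbours did not differ beyond their spread there.

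**Figure D1:**
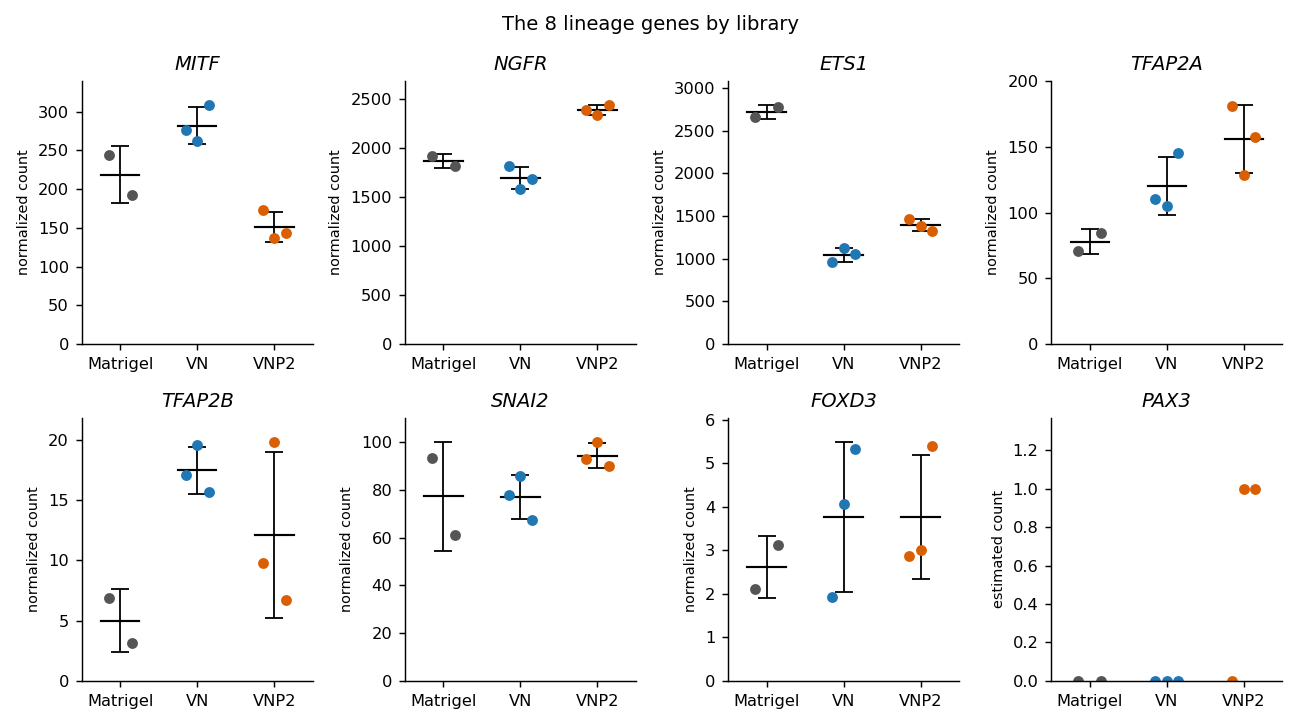
Normalized counts of the authors for each library (points), by substrate, with the mean (line) and SD (bars) of 2 Matrigel, 3 VN and 3 VNP2 libraries; PAX3, which has no normalized count, is shown as estimated counts without a mean. ETS1 is highest on Matrigel (2658 and 2775), NGFR on VNP2 (2343 to 2440) and MITF on VN (261 to 309).

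In the fits, which tested 6 of the 8 genes, OPCs on VN differed from those on Matrigel in 1, ETS1. Those on VNP2 differed from Matrigel in 4 genes, with NGFR and TFAP2A higher and MITF and ETS1 lower, and from VN in 3 genes, with NGFR and ETS1 higher and MITF lower. A gene passed when edgeR's quasi-likelihood test gave a Benjamini-Hochberg adjusted p under 0.05 over all 18201 genes. Of all genes tested, 15.2% passed for VN against Matrigel (5.81% higher and 9.41% lower), 16.6% for VNP2 against Matrigel (7.45% higher and 9.13% lower) and 5.18% for VNP2 against VN (3.07% higher and 2.1% lower). A single test over the 3 substrates passed 19.3% of all genes tested and 4 of the 6 members tested, namely MITF, NGFR, ETS1 and TFAP2A. Both comparisons with Matrigel use the same 2 control libraries. The labels do not say whether replicates were separate cultures, so the p-values measure only the spread between these libraries, which may be technical.

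**Figure D2:**
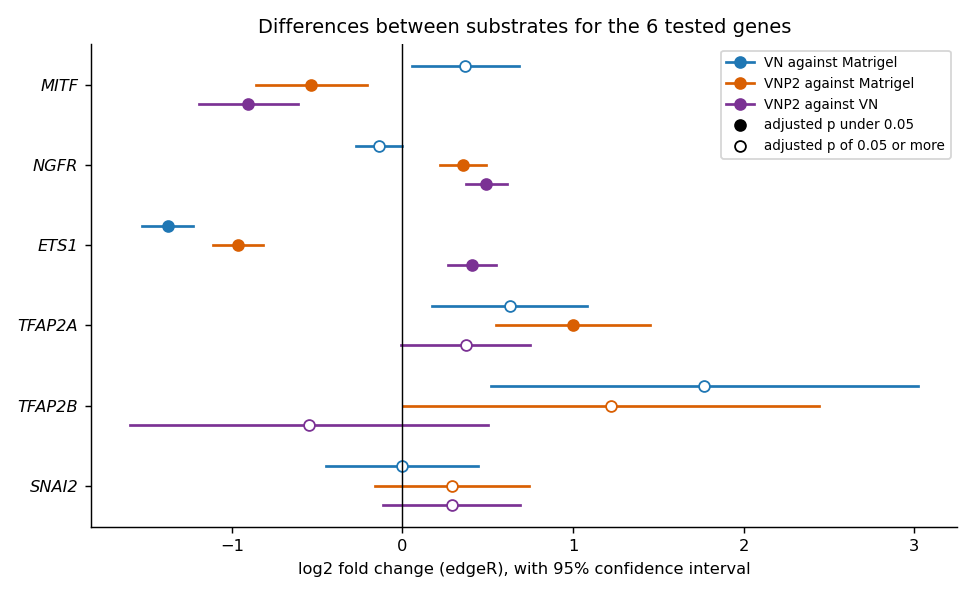
Log2 fold change (points; filled where the adjusted p is under 0.05) and 95% confidence interval (lines) of the 6 tested genes, for VN against Matrigel (blue), VNP2 against Matrigel (orange) and VNP2 against VN (purple). MITF lies at 0.37, -0.53 and -0.90 in these comparisons, ETS1 at -1.38, -0.97 and 0.41, and every interval of SNAI2 spans 0.

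MITF (ENSG00000187098, chr3:69739435-69968337, plus strand, GRCh38) encodes a basic helix-loop-helix factor that switches on pigment genes in melanocytes and, with its relatives TFEB and TFE3, lysosomal genes in many cells. It has several promoters. Reads can therefore come from broadly used forms that start far upstream or from the melanocyte form that starts far downstream, and the sequence before both starts is shown because the starts were covered unequally. Both stretches are from RefSeq (GRCh38.p14, plus strand) and stop where the annotated exons begin. The first is chr3:69739214-69739434 and the second is chr3:69936342-69936586. Capitals mark GC boxes (GGGCGG on either strand) in the distal stretch, and a cAMP response element (TGACGTCA) and a TATA box on the opposite strand (TTTATA) in the melanocyte stretch.
MITF distal start: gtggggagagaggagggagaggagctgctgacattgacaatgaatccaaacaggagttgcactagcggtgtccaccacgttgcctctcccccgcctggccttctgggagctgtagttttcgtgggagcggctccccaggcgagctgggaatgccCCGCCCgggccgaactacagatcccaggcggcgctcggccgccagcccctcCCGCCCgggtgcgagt
MITF melanocyte start: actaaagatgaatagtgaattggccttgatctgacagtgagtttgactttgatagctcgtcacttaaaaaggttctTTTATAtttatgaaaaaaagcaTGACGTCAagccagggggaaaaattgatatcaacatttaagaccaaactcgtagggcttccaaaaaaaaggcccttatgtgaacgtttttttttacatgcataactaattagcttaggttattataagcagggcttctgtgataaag

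The 250 bases before the distal start were 68.0% G or C and held 4 GC boxes, 2 of them in the stretch shown, with no cAMP response element or TATA box. The 250 bases before the melanocyte start were 34.8% G or C, with the cAMP response element 152 bases and the TATA letters 174 bases before the start. Of 35116 RefSeq promoters of that length, 42.6% held a GC box, 10.7% a TATA box, 6.35% the E-box CACGTG that MITF itself binds and 1.65% the cAMP response element, on either strand. The distal and melanocyte windows of MITF held no CACGTG.

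MITF was highest on VN and lowest on VNP2. The normalized count was 245 and 193 in the Matrigel libraries, 276, 261 and 309 in the VN libraries and 173, 137 and 143 in the VNP2 libraries. The groups did not overlap: every VN library lay above and every VNP2 library below both Matrigel libraries. Between VNP2 and VN the level was 1.87-fold lower (log2 fold change -0.90 ± 0.130 SE, edgeR adjusted p = 0.00276), a difference that passed in all 17 alternative analyses, at -1.01 to -0.83. VNP2 was also below Matrigel (-0.53 ± 0.146, edgeR adjusted p = 0.0311), but this call was lost without Matrigel replicate 2 (edgeR adjusted p = 0.273), VNP2 replicate 2 (0.0991) or VNP2 replicate 3 (0.0949). VN against Matrigel gave 0.37 ± 0.142 (edgeR adjusted p = 0.110) and did not pass.

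Most MITF counts came from the distal starts. Transcripts that begin at 69739435 to 69739482 took 83.1% of all MITF counts, and those that begin at 69936587 to 69936829, at the melanocyte start, took 16.8%. Starts in between took 0.0575% and 0.0680%. The melanocyte start received 55.4 and 65.7 estimated counts in the Matrigel libraries, 52.1, 49.8 and 0 in the VN libraries and 40.1, 0 and 29.97 in the VNP2 libraries. The values above 0 on VN and VNP2 were all below those on Matrigel, but 1 library of VN and 1 of VNP2 was listed at 0. The distal starts received 188 and 128 estimated counts in the Matrigel libraries, 231, 218 and 314 in the VN libraries and 120, 136 and 114 in the VNP2 libraries. VN was highest at the distal starts, while Matrigel and VNP2 overlapped there. Salmon divides reads that fit several transcripts between them by estimation, so a 0 may be a failed estimate, and the split between starts was not tested.

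**Figure D3:**
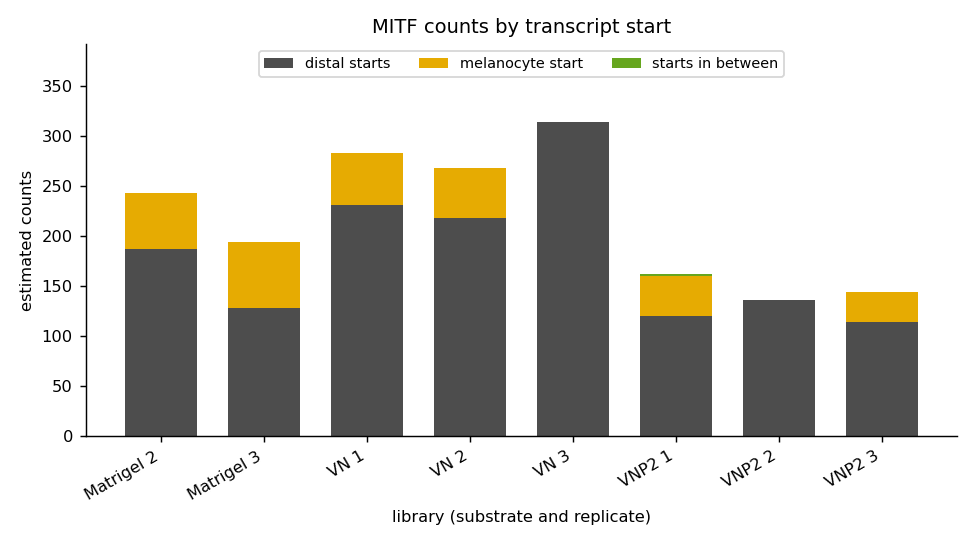
Estimated MITF counts of each library, divided by where the transcripts start: distal starts (grey), the melanocyte start (yellow) and starts in between (green). The melanocyte start holds 29.97 to 65.7 counts in 6 libraries and is listed at 0 in VN replicate 3 and VNP2 replicate 2.

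In the pigment cell program DCT and KIT rose on VN, and KIT rose and OCA2 fell on VNP2. Of 18 melanocyte genes, 14 were tested, and 2 were higher on VN than on Matrigel, 1 was higher and 1 lower on VNP2 than on Matrigel, and 1 was lower on VNP2 than on VN. These are 14.3%, 14.3% and 7.14% of the list, near the 15.2%, 16.6% and 5.18% of all genes, and the test over the 3 substrates passed 5 of 14 (35.7%, beside 19.3% of all genes). The list's median log2 fold change was -0.04, 0.00 and 0.06 in these comparisons, beside 0.01, 0.00 and 0.00 over all genes tested. DCT, the dopachrome tautomerase of melanin synthesis, rose on VN (0.30 ± 0.0536, edgeR adjusted p = 0.00471) and was lower on VNP2 than on VN (-0.34 ± 0.0476, edgeR adjusted p = 0.00250), with a mean normalized count of 2455 on Matrigel, 3007 on VN and 2386 on VNP2. DCT is also made in neural progenitors. KIT, the receptor for stem cell factor, rose on VN (0.31 ± 0.0580, edgeR adjusted p = 0.00574) and on VNP2 (0.43 ± 0.0579, edgeR adjusted p = 0.000585). OCA2, a melanosomal transporter, fell on VNP2 against Matrigel (-0.99 ± 0.218, edgeR adjusted p = 0.0107). The defining pigment genes were nearly silent: TYR and MLANA had 1.0 count each and TRPM1 5.0 counts over all 8 libraries. PMEL, the melanosome matrix protein, was present at 3.34 to 3.98 TPM and the endothelin receptor EDNRB at 132 to 150 TPM, and neither passed in any of the 3 comparisons.

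Among the MiT relatives and lysosomal targets of MITF, TFE3 fell on both vitronectin coatings. Of 15 genes, 13 were tested, with 0 higher and 2 lower on VN than on Matrigel, 0 higher and 2 lower on VNP2 than on Matrigel, and 0 of either kind for VNP2 against VN. The share was 15.4% in both comparisons with Matrigel, near that of all genes (15.2% and 16.6%). TFE3, the most abundant MiT factor here, fell on VN (-0.40 ± 0.0619, edgeR adjusted p = 0.00194) and on VNP2 (-0.24 ± 0.0619, edgeR adjusted p = 0.0257). The autophagy receptor SQSTM1 fell on VN (-0.22 ± 0.0598, edgeR adjusted p = 0.0308), and the Rag GTPase RRAGC fell on VNP2 (-0.18 ± 0.0529, edgeR adjusted p = 0.0434). TFEC, the remaining MiT member, was too low to test, and TFEB did not pass in any comparison. The list's medians were 0.04, -0.01 and 0.00.

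NGFR (ENSG00000064300, chr17:49495293-49515017, plus strand) encodes the low-affinity receptor that binds all neurotrophins and, with sortilin, their precursors. It was highest on VNP2. The normalized count was 1918 and 1818 in the Matrigel libraries, 1817, 1584 and 1687 in the VN libraries and 2388, 2343 and 2440 in the VNP2 libraries. The VNP2 libraries lay above all others, and the highest VN library lay just below the lower Matrigel library. VNP2 exceeded Matrigel by a log2 fold change of 0.36 ± 0.0605 (edgeR adjusted p = 0.00248) and VN by 0.49 ± 0.0539 (edgeR adjusted p = 0.000545), which is 1.28-fold and 1.41-fold, and both passed in all 17 alternatives. VN against Matrigel gave -0.14 ± 0.0607 (edgeR adjusted p = 0.164), and passed only without VN replicate 1 (-0.19, edgeR adjusted p = 0.0312). Nearly all NGFR counts, 99.95%, came from transcripts that begin at 49495293, so its level does not hinge on the division between starts.

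The ligands and partner receptors of NGFR shifted in both directions. Of 18 such genes in the annotation, 17 were tested: 3 were higher and 5 lower on VN than on Matrigel, 6 higher and 5 lower on VNP2 than on Matrigel, and 5 higher and 2 lower on VNP2 than on VN. The shares were 47.1%, 64.7% and 41.2%, beside 15.2%, 16.6% and 5.18% of all genes. The list's medians were -0.05, -0.11 and 0.06. The neurotrophin BDNF was among the genes that fell. The mean normalized count of BDNF was 152 ± 20.3 (SD, n = 2) on Matrigel, 29.8 ± 7.77 (n = 3) on VN and 21.1 ± 5.66 (n = 3) on VNP2, so BDNF fell by 2.36 on the log2 scale on VN (edgeR adjusted p = 0.000161) and fell by 2.84 on VNP2 (edgeR adjusted p = 3.95e-05). NTRK3, the high-affinity receptor for neurotrophin-3, fell by 1.58 on VN (edgeR adjusted p = 0.000157) and by 2.05 on VNP2 (edgeR adjusted p = 1.72e-05).

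The other receptors of the set moved less. NTRK2, the receptor for BDNF, was lower on VNP2 than on Matrigel (-0.64 ± 0.103, edgeR adjusted p = 0.00178) and than on VN (-0.56 ± 0.0933, edgeR adjusted p = 0.00635). LINGO1, a partner of NGFR in the Nogo receptor complex, was higher on VNP2 than on Matrigel (0.33 ± 0.0634, edgeR adjusted p = 0.00532) and than on VN (0.47 ± 0.0566, edgeR adjusted p = 0.000922). Among the sortilin family, SORCS3 was higher on VNP2 than on Matrigel (0.67 ± 0.119, edgeR adjusted p = 0.00319) and than on VN (0.64 ± 0.105, edgeR adjusted p = 0.00581). SORCS2 was higher than on Matrigel on VN (0.43 ± 0.0953, edgeR adjusted p = 0.0127) and on VNP2 (0.41 ± 0.0949, edgeR adjusted p = 0.0139). SORCS1 was higher on VN than on Matrigel (0.31 ± 0.0602, edgeR adjusted p = 0.00714) and lower on VNP2 than on VN (-0.42 ± 0.0537, edgeR adjusted p = 0.00121). SORT1, sortilin itself, did not pass in any comparison.

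**Figure D4:**
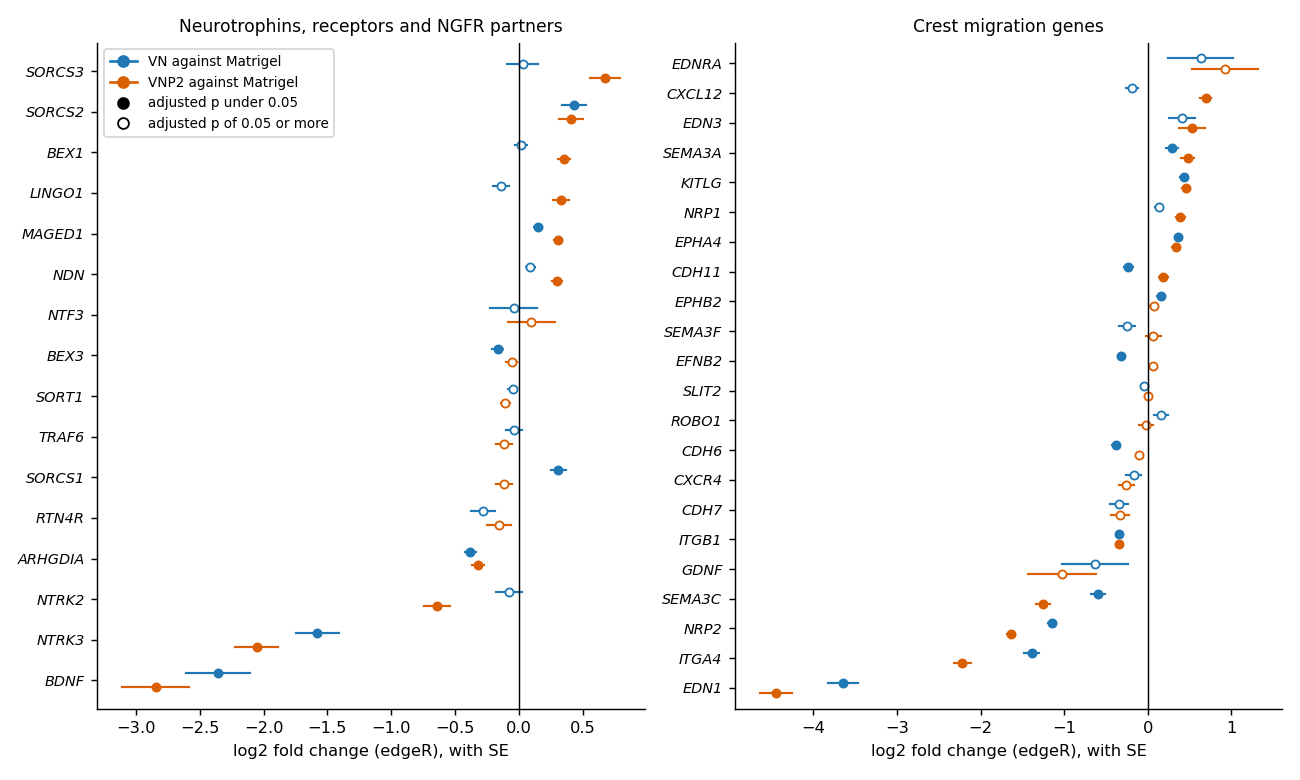
Log2 fold change (points; filled where the adjusted p is under 0.05) and SE (lines) for neurotrophin and NGFR partner genes (left) and the 22 crest migration genes (right), for VN (blue) and VNP2 (orange) against Matrigel. BDNF (-2.36 and -2.84) and EDN1 (-3.65 and -4.45) lie farthest to the left in their lists.

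ETS1 (ENSG00000134954, chr11:128458761-128587558, minus strand) encodes an ETS-domain factor of cranial and cardiac crest delamination that also acts in endothelial and mesenchymal cells. It showed the largest called difference among the 8 genes. The normalized count was 2658 and 2775 in the Matrigel libraries, 962.5, 1121 and 1051 in the VN libraries and 1465, 1379 and 1326 in the VNP2 libraries. The groups did not overlap, with Matrigel highest and VN lowest. ETS1 was 2.60-fold lower on VN than on Matrigel (log2 fold change -1.38 ± 0.0674, edgeR adjusted p = 6.31e-07) and 1.95-fold lower on VNP2 (-0.97 ± 0.0665, edgeR adjusted p = 4.60e-06). VNP2 lay 1.33-fold above VN (0.41 ± 0.0630, edgeR adjusted p = 0.00404). All of these calls held in the 17 alternatives, at -1.43 to -1.32, -1.005 to -0.93 and 0.35 to 0.46.

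Both main starts of ETS1 shared the difference. The starts at 128522201 to 128522310 held 54.6% of the counts, with 1408 and 1559 estimated counts in the Matrigel libraries, 501, 647 and 534 in the VN libraries and 736, 851 and 679 in the VNP2 libraries. Those at 128587523 to 128587558 held 45.4%, with 1187 and 1148 in the Matrigel libraries, 484, 458 and 510 in the VN libraries and 774, 528 and 667 in the VNP2 libraries. At either start all Matrigel libraries lay above all others. TAGLN, KRT8 and KRT18 were also highest on Matrigel, and their part in the ETS1 difference was not tested. Among the 14 mesenchymal markers TAGLN fell by 2.11 on VN and fell by 2.29 on VNP2, whereas DCN rose by 0.53 and 0.34. The 8 endothelial markers summed to 20.03 to 21.5 TPM in the Matrigel libraries, 21.3 to 25.5 in the VN libraries and 21.6 to 22.7 in the VNP2 libraries. Without CLDN5 these sums were 11.48 to 12.4, 11.21 to 11.29 and 10.65 to 10.75 TPM. Of 6 endothelial markers tested, 0 were higher and 2 lower on each vitronectin coating than on Matrigel. These were CDH5 (log2 fold change -1.92 on VN and -1.60 on VNP2) and TEK (-0.99 and -1.36). Their part in the ETS1 difference was not tested.

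Among the other ETS factors, ELF4 and ELK3 fell on both vitronectin coatings. All 12 listed relatives were tested, with 0 higher and 2 lower on VN than on Matrigel, 0 higher and 3 lower on VNP2 than on Matrigel, and 1 higher and 1 lower on VNP2 than on VN. The shares were 16.7%, 25% and 16.7%, beside 15.2%, 16.6% and 5.18% of all genes. ELF4 fell by 0.70 on VN (edgeR adjusted p = 0.000105) and by 0.997 on VNP2 (edgeR adjusted p = 6.01e-06). ELK3, a ternary complex factor, fell by 0.67 on VN (edgeR adjusted p = 5.94e-05) and by 0.31 on VNP2 (edgeR adjusted p = 0.00634), so that VNP2 lay above VN (0.36 ± 0.0567, edgeR adjusted p = 0.00449). ELF1 fell by 0.32 on VNP2 (edgeR adjusted p = 0.00690). ETS2, the closest relative of ETS1, gave -0.12 ± 0.0876 on VN and 0.10 ± 0.0872 on VNP2 and did not pass. The list's medians were -0.08, -0.02 and -0.04.

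TFAP2A (ENSG00000137203, chr6:10393186-10419659, minus strand) encodes the AP-2 factor that specifies the plate border and later acts with MITF on melanocyte genes. It was lowest on Matrigel. The normalized count was 71.1 and 84.8 in the Matrigel libraries, 110, 105 and 146 in the VN libraries and 181, 129 and 158 in the VNP2 libraries. Every VN and VNP2 library lay above both Matrigel libraries, and VN and VNP2 overlapped. VNP2 exceeded Matrigel 2.00-fold (log2 fold change 0.9995 ± 0.203, edgeR adjusted p = 0.00695), a call that was lost without Matrigel replicate 2 (0.88, edgeR adjusted p = 0.0760). VN against Matrigel gave 0.63 ± 0.204 (edgeR adjusted p = 0.0646), and passed in 5 of 17 alternatives. VNP2 against VN gave 0.37 ± 0.171 (edgeR adjusted p = 0.265), with a 95% interval of -0.01 to 0.75.

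Counts of TFAP2A were divided mainly between starts at 10412046 to 10412879, with 58.4%, and at 10414985 to 10416190, with 41.0%. The share of the former ranged from 35.5% to 93.2% between libraries without an order by substrate, and the far upstream start at 10419554 to 10419659 had 4.41 counts in all. The 250 bases before that upstream start held a TATA box 30 bases before it, and those before the RefSeq start at 10412391 were 71.2% G or C with no TATA box.

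TFAP2B (ENSG00000008196, chr6:50818723-50847613, plus strand), a second AP-2 factor of the crest and of sympathetic neurons, was measured by few reads. The estimated count was 11.0 and 5.0 in the Matrigel libraries, 8.0, 11.0 and 14.0 in the VN libraries and 9.0, 22.0 and 11.0 in the VNP2 libraries, so the substrates overlapped. After the correction for transcript length the normalized count was 6.88 and 3.14 in the Matrigel libraries, 17.1, 19.6 and 15.7 in the VN libraries and 9.78, 19.9 and 6.69 in the VNP2 libraries. On that scale VN lay above Matrigel without overlap. VN against Matrigel gave 1.77 ± 0.564 (edgeR adjusted p = 0.0607) and passed in 7 of 16 alternatives, but came to 0.43 without the length correction (edgeR adjusted p = 0.631). VNP2 against Matrigel gave 1.22 ± 0.549 (edgeR adjusted p = 0.171), and VNP2 against VN gave -0.55 ± 0.472 (edgeR adjusted p = 0.574), which turned to 0.33 without the length correction.

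SNAI2 (ENSG00000019549, chr8:48917604-48921740, minus strand), the zinc-finger repressor of epithelial genes in delaminating crest, did not pass in any comparison. Its normalized count was 93.4 and 61.2 in the Matrigel libraries, 77.8, 85.7 and 67.5 in the VN libraries and 92.8, 100.1 and 90.1 in the VNP2 libraries. VNP2 lay above VN without overlap, and the spread of the Matrigel libraries covered VN and part of VNP2. The log2 fold change was 0.00 for VN against Matrigel (95% interval -0.45 to 0.45, edgeR adjusted p = 0.9999), 0.29 for VNP2 against Matrigel (-0.16 to 0.74, edgeR adjusted p = 0.396) and 0.29 for VNP2 against VN (-0.11 to 0.69, edgeR adjusted p = 0.421).

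FOXD3 and PAX3 were at the limit of detection. FOXD3 (ENSG00000187140, chr1:63323041-63325126, plus strand), a forkhead factor of the premigratory crest that is also made in pluripotent cells, had 2.0 and 3.0 estimated counts in the Matrigel libraries, 2.0, 4.0 and 5.0 in the VN libraries and 3.0, 3.0 and 6.0 in the VNP2 libraries. These ranges overlapped on all coatings. PAX3 (ENSG00000135903, chr2:222199888-222298996, minus strand), a paired-box factor of the dorsal neural tube that activates MITF in melanoblasts, had 1.0 count in VNP2 replicate 2, 1.0 in VNP2 replicate 3 and 0 in each of the other 6 libraries. A count of 0 allows up to 3 counts a library, so differences in PAX3 were not detectable at this depth. FOXD3, TFAP2A and ETS1 have antisense genes over part of their length; the library kit marks strand, but whether the quantification used it is not given in the sources used here.

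Among the other plate border and crest factors, most of those that passed were higher on the vitronectin coatings. Of 21 listed, 18 were tested: 5 were higher and 1 lower on VN than on Matrigel, 8 higher and 1 lower on VNP2 than on Matrigel, and 1 higher and 0 lower on VNP2 than on VN. As a share of the 18 genes this was 33.3%, 50% and 5.56%, beside 15.2%, 16.6% and 5.18% of all genes. VNP2 against VN was thus near the share of all genes. The list's medians were 0.17, 0.30 and 0.13. DLX5, a homeobox factor of the plate border, rose by 0.53 ± 0.120 on VN (edgeR adjusted p = 0.0148) and 0.75 ± 0.120 on VNP2 (edgeR adjusted p = 0.00165). SOX9 rose by 0.46 ± 0.0538 on VN (edgeR adjusted p = 0.000310) and 0.37 ± 0.0538 on VNP2 (edgeR adjusted p = 0.000989). ZIC1 rose by 0.45 ± 0.0624 on VN (edgeR adjusted p = 0.000875) and 0.57 ± 0.0624 on VNP2 (edgeR adjusted p = 0.000125). Both SOX9 and ZIC1 are also general neural progenitor factors. GBX2 (0.90 ± 0.250, edgeR adjusted p = 0.0326) and SNAI1, the paralogue of SNAI2 (0.59 ± 0.176, edgeR adjusted p = 0.0442), rose on VNP2. MYC fell by 0.53 on VN (edgeR adjusted p = 0.0202) and by 0.64 on VNP2 (edgeR adjusted p = 0.00682). ID3, a BMP target, was the gene that was higher on VNP2 than on VN (0.54 ± 0.0501, edgeR adjusted p = 0.000201). PAX7 had 5.0 counts over all libraries and, like SOX10, was not tested, and neither MSX1 (-0.10 ± 0.398 on VN and -0.51 ± 0.403 on VNP2) nor TFAP2C (1.196 ± 0.534 and 0.12 ± 0.560) passed.

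**Figure D5:**
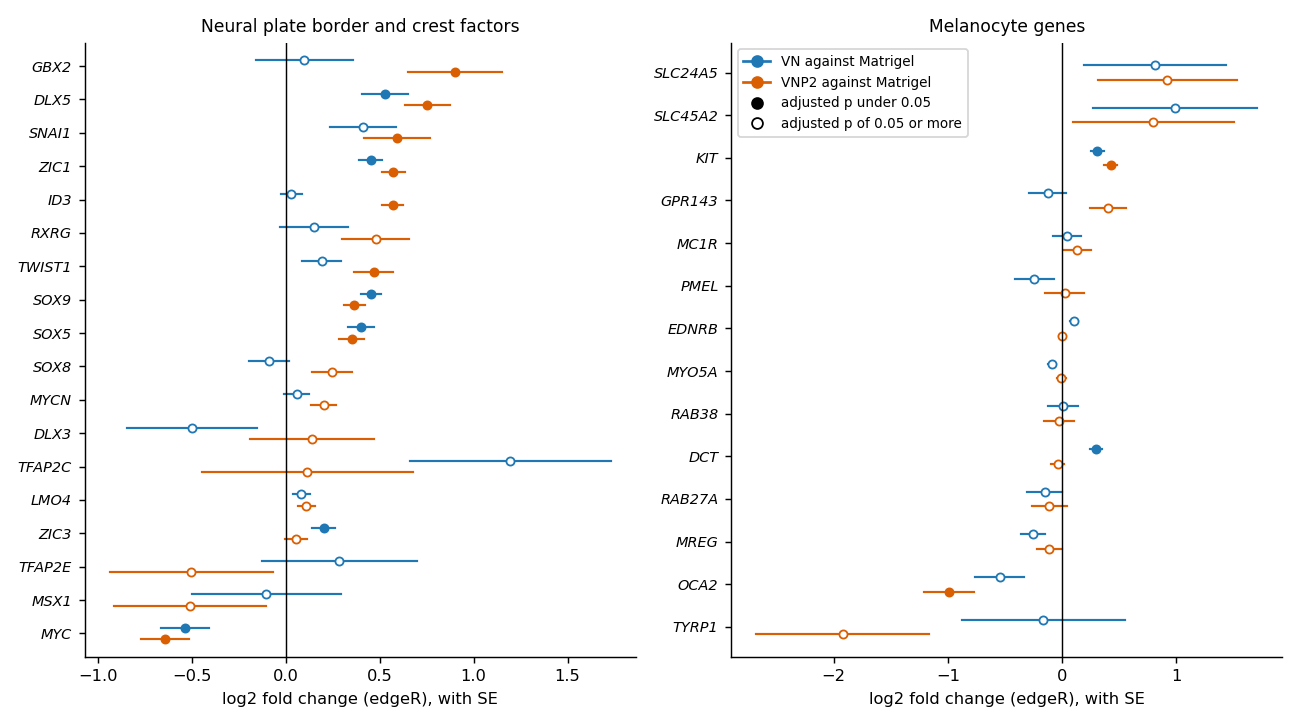
Log2 fold change (points; filled where the adjusted p is under 0.05) and SE (lines) for the 18 tested plate border and crest factors (left) and the 14 tested melanocyte genes (right), for VN (blue) and VNP2 (orange) against Matrigel. DLX5, ZIC1, SOX5 and SOX9 are filled to the right for both coatings and MYC to the left, whereas among the melanocyte genes KIT alone is filled for both.

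Genes of the SNAI and ZEB switch from epithelial to mesenchymal state did not move in 1 direction. Of 15, 12 were tested: 1 was higher and 3 lower on VN than on Matrigel, 3 higher and 5 lower on VNP2 than on Matrigel, and 2 higher and 3 lower on VNP2 than on VN, with medians of 0.10, -0.12 and 0.02. The shares were 33.3%, 66.7% and 41.7%, beside 15.2%, 16.6% and 5.18% of all genes. On the epithelial side, CDH1 was lower on VNP2 than on Matrigel (-1.01 ± 0.225, edgeR adjusted p = 0.0115) and than on VN (-1.13 ± 0.204, edgeR adjusted p = 0.00986), as was the splicing factor ESRP1 (-1.23 ± 0.321, edgeR adjusted p = 0.0252, and -1.96 ± 0.280, edgeR adjusted p = 0.00267). Both were low, with substrate means of 0.235 to 0.521 TPM for CDH1 and 0.135 to 0.533 TPM for ESRP1. EPCAM, the most abundant epithelial gene of the list at 5.13 to 5.53 TPM, did not pass in any comparison. On the mesenchymal side, CDH2 fell by 0.29 on VN (edgeR adjusted p = 0.000174) and by 0.33 on VNP2 (edgeR adjusted p = 4.55e-05). VIM fell by 0.46 on VN (edgeR adjusted p = 1.03e-05) and by 0.24 on VNP2 (edgeR adjusted p = 0.000731). FN1 rose by 0.38 on VN (edgeR adjusted p = 7.68e-05) and fell by 0.35 on VNP2 (edgeR adjusted p = 9.34e-05). It was lower on VNP2 than on VN (-0.73 ± 0.0327, edgeR adjusted p = 2.91e-06). The crest cadherin CDH6 fell by 0.38 on VN (edgeR adjusted p = 0.000197) and was higher on VNP2 than on VN (0.28 ± 0.0379, edgeR adjusted p = 0.00182). TWIST1 rose on VNP2 against Matrigel (0.47 ± 0.103, edgeR adjusted p = 0.0107).

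Ligands, receptors and adhesion molecules of crest migration included the largest fall among the listed genes, that of EDN1. All 22 were tested: 4 were higher and 8 lower on VN than on Matrigel, 7 higher and 5 lower on VNP2 than on Matrigel, and 5 higher and 3 lower on VNP2 than on VN. The shares were 54.5%, 54.5% and 36.4%, beside 15.2%, 16.6% and 5.18% of all genes. The list's medians were -0.21, 0.03 and 0.02. EDN1, endothelin-1, had a mean normalized count of 573 ± 46.7 (SD, n = 2) on Matrigel, 45.5 ± 5.87 (n = 3) on VN and 26.2 ± 8.31 (n = 3) on VNP2, so it fell by 3.65 (edgeR adjusted p = 6.31e-07) and by 4.45 (edgeR adjusted p = 2.11e-07) on the log2 scale. NRP2, a semaphorin receptor, fell by 1.15 on VN and 1.63 on VNP2, and was lower on VNP2 than on VN (-0.49 ± 0.0433, edgeR adjusted p = 0.000150). SEMA3C followed the same order, with -0.60 ± 0.0840 on VN, -1.25 ± 0.0857 on VNP2 and -0.66 ± 0.0797 for VNP2 against VN (edgeR adjusted p = 0.000997, 4.45e-06 and 0.000922). CXCL12, the chemokine that guides CXCR4-bearing cells, was higher on VNP2 than on VN (0.88 ± 0.0631, edgeR adjusted p = 4.84e-05). CXCR4 did not pass in any comparison.

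In the Schwann cell and peripheral glia list, 12 of 15 genes were tested: 1 was higher and 2 lower on VN than on Matrigel, 4 higher and 1 lower on VNP2 than on Matrigel, and 4 higher and 1 lower on VNP2 than on VN, with medians of 0.03, 0.17 and 0.15. Genes that passed made up 25%, 41.7% and 41.7% of the 12, beside 15.2%, 16.6% and 5.18% of all genes. The gene that fell on both coatings was ITGA4, an integrin subunit of migrating crest, by 1.39 on VN (edgeR adjusted p = 7.10e-06) and 2.22 on VNP2 (edgeR adjusted p = 2.35e-07), with VNP2 below VN (-0.83 ± 0.0958, edgeR adjusted p = 0.000735). POU3F1, a factor of promyelinating Schwann cells and of neural progenitors, rose by 0.54 ± 0.0877 on VN (edgeR adjusted p = 0.00265) and 0.72 ± 0.0873 on VNP2 (edgeR adjusted p = 0.000275). FABP7 and L1CAM were higher on VNP2 than on VN (0.38 ± 0.0532 and 0.37 ± 0.0729, edgeR adjusted p = 0.00221 and 0.0158), and GAP43 fell on VN (-0.32 ± 0.0435, edgeR adjusted p = 0.000737). These genes are also made by central neurons or progenitors. The neuregulin receptor ERBB3 did not pass in any comparison.

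Of 20 genes of crest-derived peripheral neurons, 17 were tested: 5 were higher and 1 lower on VN than on Matrigel, 6 higher and 1 lower on VNP2 than on Matrigel, and 1 higher and 2 lower on VNP2 than on VN, with medians of 0.30, 0.40 and 0.11. The shares were 35.3%, 41.2% and 17.6%, beside 15.2%, 16.6% and 5.18% of all genes. TH, tyrosine hydroxylase, rose on VN (0.77 ± 0.214, edgeR adjusted p = 0.0350) and VNP2 (1.05 ± 0.211, edgeR adjusted p = 0.00675). ISL1 also rose on VN (0.68 ± 0.0817, edgeR adjusted p = 0.000339) and VNP2 (0.73 ± 0.0817, edgeR adjusted p = 0.000148). RUNX1 fell on VN (-0.62 ± 0.0912, edgeR adjusted p = 0.00128) and VNP2 (-0.90 ± 0.0915, edgeR adjusted p = 7.78e-05). RET rose on VNP2 (1.22 ± 0.311, edgeR adjusted p = 0.0227) and did not pass on VN (0.97 ± 0.317, edgeR adjusted p = 0.0654). The sensory factors POU4F1 (1.03 ± 0.238, edgeR adjusted p = 0.0162) and NEUROG1 (0.93 ± 0.249, edgeR adjusted p = 0.0308) rose on VN, and POU4F1 was lower on VNP2 than on VN (-1.22 ± 0.211, edgeR adjusted p = 0.00782). Summed TPM of the 8 central neuron markers on Matrigel, VN and VNP2 was 898 to 933, 1026 to 1064 and 1069 to 1085. Without STMN2 it was 797.4 to 824.9, 871.5 to 910.6 and 888.1 to 899.9, so that VN and VNP2 overlapped. On each vitronectin coating 5 of 8 central neuron markers were higher than on Matrigel. The part of these markers in the counts of the peripheral neuron list was not tested.

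Of 20 dorsal neural tube genes, 13 were tested: 5 were higher and 1 lower on VN than on Matrigel, 4 higher and 0 lower on VNP2 than on Matrigel, and 3 higher and 2 lower on VNP2 than on VN, with medians of 0.45, 0.33 and -0.11. The shares were 46.2%, 30.8% and 38.5%, beside 15.2%, 16.6% and 5.18% of all genes. OLIG3, which marks dorsal progenitors, rose on VN (1.73 ± 0.392, edgeR adjusted p = 0.0146) and was lower on VNP2 than on VN (-1.99 ± 0.349, edgeR adjusted p = 0.00845), at means of 7.12, 23.8 and 5.91 normalized counts on Matrigel, VN and VNP2. PAX8 took the opposite course, lower on VN than on Matrigel (-1.70 ± 0.482, edgeR adjusted p = 0.0388) and higher on VNP2 than on VN (2.02 ± 0.417, edgeR adjusted p = 0.0198). Its means were 43.8, 13.7 and 55.1 normalized counts on Matrigel, VN and VNP2, with an SD of 26.9 on VNP2. BMP6, a dorsalising signal, was higher on VNP2 than on Matrigel (0.99 ± 0.0555, edgeR adjusted p = 1.08e-06), as was GBX1 (1.26 ± 0.307, edgeR adjusted p = 0.0181). GBX1 was low, at means of 15.2, 15.2 and 36.8 normalized counts on Matrigel, VN and VNP2. TLX3, a factor of dorsal interneurons, rose on VN (0.63 ± 0.154, edgeR adjusted p = 0.0203) and VNP2 (0.72 ± 0.153, edgeR adjusted p = 0.00946). The roof plate and dorsal genes WNT3A, LMX1A, PTF1A, LBX1 and PAX2 stayed below 3 counts a library on every coating.

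Some genes outside these lists varied across the 8 libraries much as the 6 tested genes did. Likeness was measured as Pearson's r of log2 values over the 8 libraries among 12996 genes of sufficient level, so it reflects the same 3 substrates and is given as a description. ETS1 was most like CAV1 (r = 0.997), the coat protein of caveolae, and CTGF (r = 0.995), a matricellular gene of the YAP pathway. The mean normalized count of CAV1 on Matrigel, VN and VNP2 was 3466, 2299 and 2644. That of CTGF was 37037, 14786 and 19045. MITF was most like BUB1B (r = 0.973), a kinase of the spindle checkpoint, and VRK2 (r = 0.972). NGFR was most like MGAT5 (r = 0.988), a glycosyltransferase. For TFAP2A the nearest genes were PLCH2 (r = 0.982) and EPC2 (r = 0.967), and for TFAP2B they were UPF3B (r = 0.969) and NKX3-2 (r = 0.953). SNAI2 was nearest to GTF2IRD2B (r = 0.975), whose reads are shared with near-identical copies, and FAM208A (r = 0.950).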

How the data were processed

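Libraries were made from polyadenylated RNA with a stranded kit. The authors trimmed reads with Trim Galore and quantified them with Salmon on GENCODE release 32 (GRCh38.p13). The deposited estimated counts and TPM per transcript were summed per gene here with GENCODE release 29, which matched 205225 of 226608 transcripts and 98.8% to 98.9% of counts. The deposited normalized counts, a signal scaled by the authors with DESeq2 1.27.12, list 23350 genes and 7 of the 8 members (not PAX3). Estimated counts were rounded and tested with edgeR 4.0.16 (quasi-likelihood, TMM, offsets for mean transcript length) on all 8 libraries, for genes with at least 10 counts in enough libraries and 15 in total. On simulated data for VNP2 against Matrigel, 198 of 200 changed genes were recovered among 17972, with 9 unchanged genes called. These numbers are not divided by level or by size of difference. Recovery of genes with few counts, or with small differences, was not tested separately. Alternatives were DESeq2 1.42.0, limma 3.58.1 on log2 of the normalized count plus 1 or 5, other filters and scaling, and leaving out each library. The members, the 10 gene lists and the 7 marker lists were chosen with earlier results of these data known. In each list the text names up to 4 called genes per comparison with the largest change, plus lineage genes of interest whatever their value. Likeness used genes with a mean of at least 100 normalized counts. RefSeq promoters were matched for 5 of the 8 members, and those of NGFR, ETS1 and SNAI2 were not used here. Some genes that these rules name are counted in their lists but are not reported here.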

Additional observations from a re-analysis of the deposited data

How the results depend on the processing

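Under the 17 alternatives, the calls for ETS1 in all 3 comparisons, for MITF in VNP2 against VN, and for NGFR in both VNP2 comparisons were kept, and no called gene of the 8 changed its direction. The number of the 8 genes that passed for VN against Matrigel, 1 as reported, rose to 2 with the replicate block, without length offsets, with only the libraries of the pair or with at least 50 counts in every library, and to 3 without a filter on low counts and with limma at either pseudocount (1 or 5). The added genes were TFAP2A, TFAP2B or both; TFAP2B could not be tested at 50 counts. Leaving out a library gave 1 to 2 genes for VN against Matrigel, 2 to 4 for VNP2 against Matrigel and 3 to 4 over the 3 substrates. Over all genes, leaving out a library gave 1184 to 3911 calls for VN against Matrigel (2770 as reported), 1611 to 3653 for VNP2 against Matrigel (3017), 544 to 1979 for VNP2 against VN (942) and 1881 to 4981 over the 3 substrates (3517). The counts were lowest without a Matrigel library for both comparisons with Matrigel, where 1 control library remains and is assumed to vary like the others, and highest without VN replicate 1 in all 4 tests, also in VNP2 against Matrigel, where it enters the fit but not the contrast; the cause was not tested. List counts moved by over 1.5 times in some alternatives: for VN against Matrigel the crest factors ranged from 3 to 6, the peripheral neuron list from 3 to 8, the neurotrophin list from 3 to 9, the dorsal list from 1 to 6, the melanocyte genes from 1 to 4 and the MiT list from 1 to 3, and for VNP2 against Matrigel the crest factors from 5 to 11, the SNAI and ZEB list from 4 to 8, the peripheral neuron list from 4 to 7, the dorsal list from 2 to 5, the melanocyte genes from 1 to 2 and the MiT list from 0 to 3. For VNP2 against VN the dorsal list ranged from 1 to 5 (5 as reported), the crest factors from 1 to 4 (1), the melanocyte genes from 1 to 3 (1), the peripheral neurons from 1 to 5 (3), the Schwann list and the SNAI and ZEB list from 3 to 5 (5 each), the MiT list from 0 to 2 (0) and the ETS factors from 1 to 3 (2). The replicate block gave 2, 4 and 3 of the 8 genes. Deviations of same-numbered libraries from their substrate means correlated at r from -0.13 to 0.16 over 12996 genes. Those means rest on 2 or 3 libraries, so these values cannot tell whether same-numbered libraries shared a culture. TFAP2B, FOXD3 and PAX3 had 22 estimated counts at most in any library, which limits what can be seen.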
